A study of Mus musculus with 12 samples.

Results

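The 32 genes described here encode the machinery that makes cholesterol and fatty acids, and they were followed in mouse splenic dendritic cells (DCs), cells that take up antigen and present it to T cells. They were chosen by name as members of this pathway and found by matching Ensembl gene identifiers to GENCODE symbols. All 32 were among the 57009 gene identifiers measured, and all 32 passed the filter on low counts, which left 14413 genes to test. By role they were 7 enzymes of the mevalonate arm (Acat2, Hmgcs1, Mvk, Pmvk, Mvd, Idi1 and Fdps), 3 that lead from there to lanosterol (Fdft1, Sqle and Lss) and 8 that turn lanosterol into cholesterol (Cyp51, Tm7sf2, Msmo1, Nsdhl, Hsd17b7, Ebp, Sc5d and Dhcr7). The others were 5 regulators (Srebf1, Srebf2, Scap, Insig1 and Insig2), the sterol transfer protein gene Stard4, and 8 genes of fatty acid synthesis and desaturation (Acly, Acaca, Fasn, Elovl6, Scd1, Scd2, Fads1 and Fads2).

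RNA was sequenced from 12 libraries, 3 in each of 4 groups, after 3 h of culture. In every group the DCs came from spleens of B6 (C57BL/6) mice that carried B16 cells releasing Flt3 ligand, a cytokine that drives DC growth, so all groups share a tumour-bearing, Flt3 ligand-driven source; the labels do not give the mice's age or sex. T, B and natural killer cells and macrophages were removed with beads before culture. The DC only group was cultured alone, the LPS group with lipopolysaccharide (LPS, a bacterial outer membrane glycolipid that activates DCs; the labels give no dose), the SynTem group with syngeneic B6 effector memory T cells, and the AlloTem group with memory T cells that were derived from BALB/c and specific for alloantigen. T cell strain and recognition of the DCs as foreign therefore cannot be told apart. DCs were sorted from the cultures on CD11b and CD11c. The deposited table assigns batch 1, 2 or 3, which matched the replicate number of all 12 libraries, without stating what defines a batch. Nothing in the labels says that replicates came from different animals or cultures; the p-values therefore reflect spread between these libraries, part of which may be technical. In bulk RNA, fewer cells of a type and less RNA per cell cannot be told apart.

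Cholesterol is built from acetyl-CoA through mevalonate, isoprenoid units, squalene and lanosterol, and fatty acids are built from the same acetyl-CoA and then elongated and desaturated. Most of the genes are switched on by sterol regulatory element-binding proteins (SREBPs), membrane-bound transcription factors. When sterols are low, the escort protein encoded by Scap carries SREBPs out of the endoplasmic reticulum for cleavage, and when sterols are high the Insig proteins hold SREBPs back. Oxysterols, which bind Insig proteins and the nuclear receptor LXR, link this system to inflammatory signalling in myeloid cells.

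The promoters of Hmgcs1, Idi1 and Cyp51 are shown because they had the highest mean levels per kilobase of the 18 sterol enzymes and were highest in the same library, AlloTem 2. Sequences are from RefSeq (GRCm38.p6), 250 bases before to 50 after the annotated start, 5′ to 3′ on the gene's strand. Hmgcs1 lies at chr13:119690101-119690400 on the plus strand, Idi1 at chr13:8885356-8885655 on the plus strand and Cyp51 at chr5:4104648-4104947 on the minus strand. Capitals mark matches, on either strand, to TCACNCCAC (a sterol regulatory element), its inner part CACNCCAC, or CCAAT (bound by the factor NF-Y; ATTGG on the other strand).
Hmgcs1: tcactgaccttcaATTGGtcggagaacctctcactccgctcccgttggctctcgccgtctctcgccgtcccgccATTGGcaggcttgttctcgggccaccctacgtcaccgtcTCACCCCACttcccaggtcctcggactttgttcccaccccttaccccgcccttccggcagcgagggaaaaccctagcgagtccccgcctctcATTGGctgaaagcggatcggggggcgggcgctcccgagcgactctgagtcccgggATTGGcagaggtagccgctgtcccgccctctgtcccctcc
Idi1: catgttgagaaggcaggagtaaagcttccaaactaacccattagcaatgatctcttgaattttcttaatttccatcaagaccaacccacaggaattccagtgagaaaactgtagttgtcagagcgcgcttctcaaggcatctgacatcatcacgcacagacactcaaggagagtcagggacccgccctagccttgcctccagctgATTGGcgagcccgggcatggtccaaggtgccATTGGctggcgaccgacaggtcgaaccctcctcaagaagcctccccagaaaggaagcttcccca
Cyp51: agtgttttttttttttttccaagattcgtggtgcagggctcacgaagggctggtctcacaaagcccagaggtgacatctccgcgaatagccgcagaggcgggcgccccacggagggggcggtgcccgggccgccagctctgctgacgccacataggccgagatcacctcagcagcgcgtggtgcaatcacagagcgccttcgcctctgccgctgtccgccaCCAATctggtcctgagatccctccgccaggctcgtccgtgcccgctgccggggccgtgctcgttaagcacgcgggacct

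In the Hmgcs1 window TCACCCCAC started 137 bases before the annotated start, with ATTGG at 237, 176 and 45 bases before it and at base 11 after it. The Idi1 window held ATTGG at 45 and 14 bases before the start, and the Cyp51 window held CCAAT at 29 bases before it. Of the 32 genes 25 had a promoter in the table; Fdps, Fdft1, Sqle, Stard4, Scd1, Scd2 and Fads1 had none there. CCAAT was found for 20 of the 25 (80.0%), against 43.0% of 10158 tested genes and 41.1% of all 27025 genes with a promoter of the same length. GGGCGG, bound by the Sp1 family, was found for 21 of 25 (84.0%), against 66.8% of tested genes and 38.2% of all. CACGTG, an E-box, was found for 5 of 25 (20.0%, against 11.6% and 8.09%). CACNCCAC was found for Acat2, Hmgcs1 and Insig1 (12%, against 7.5% and 7.12%), and TCACNCCAC only for Hmgcs1 (4.0%, against 1.37% and 1.44%). Both strands were searched, CACNCCAC lies inside TCACNCCAC, and a gene with several promoters counted as holding a motif if any of them did. A match is a description of letters in this window and not of a bound site.

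Libraries held 13903574 to 21861156 counts. Levels are as CPM, that is counts divided by a library total that was scaled with the TMM factors of edgeR and set to a common size. All 12 transcripts of a conventional DC marker list were present in all libraries, with Flt3 at 316 to 461 CPM and Cd74 at 4820.0 to 9771 CPM. In the same list Zbtb46 ran from 102 to 224 CPM, Batf3 from 18.7 to 70.9 CPM and Xcr1 from 18.85 to 85.0 CPM. Of 6 melanocyte markers, which would mark the tumour, 3 were at 0 in every library and the 6 summed to 2.16 to 7.29 CPM. The summed level of 16 T cell markers was 35.8 to 51.5 CPM in DC only, 37.3 to 86.3 CPM in LPS, 203.0 to 482 CPM in SynTem and 94.8 to 176 CPM in AlloTem. Transcripts of the Y-linked genes Uty, Kdm5d, Eif2s3y and Ddx3y summed to 209, 219.6 and 204 CPM in DC only 3, LPS 3 and AlloTem 3, to 175 CPM in SynTem 2 and 131 CPM in SynTem 3, and to at most 10.3 CPM in the other 7 libraries. Xist, expressed from the inactive X chromosome of female cells, was 138 to 146 CPM in DC only 3, LPS 3 and AlloTem 3, against 610.0 to 1188 CPM in replicates 1 and 2 of those groups. In SynTem, Xist was 798, 312 and 455 CPM in libraries 1 to 3, so SynTem 2 and SynTem 3 lay between those ranges. By the Y-linked and Xist transcripts, replicate 3 of DC only, LPS and AlloTem therefore did not come from the same mix of cells as replicates 1 and 2. SynTem 2 was the library of batch 2 that carried the Y-linked transcripts. DC only 1 and 2 were more alike than any other pair of replicates (chi-square over its degrees of freedom 5.79, elsewhere 25.2 to 78.8). Their difference exceeded counting noise, and both were kept as replicates. Spread above counting noise does not show that they came from separate animals or cultures. Comparisons with DC only may therefore rest on fewer independent samples than libraries.

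The pathway was expressed in every library. Counts behind a single value ran from 22 (Scd1 in DC only 1) to 14123 (Srebf2). Per kilobase of annotated exon, over the 12 libraries, Srebf2 had the highest mean level (82.5 CPM per kb), followed by Acly (47.4), Scd2 (29.4) and Fasn (27.4). Among the sterol enzymes Hmgcs1 (23.0 CPM per kb), Idi1 (21.4) and Cyp51 (20.5) led, and Lss, the cyclase that makes lanosterol, was lowest of the 32 (1.00), with Scd1 close to it (1.04). The length joins the exons of all annotated transcripts, 10787 bases for Lss, so the rank depends on the annotation. By mean CPM Lss (10.8) was above Scd1 (5.07). For 12 overlaps with other genes the reads could be split: Fdps shares 26.7% of its exon bases with Gm43738 on the same strand and Tm7sf2 12.1% with Vps51 on the same strand. Fdft1 shares 18.3% with Ctsb, Scap 13.2% with 5830462I19Rik, Hmgcs1 12.1% with Gm48342, Idi1 9.22% with Gm48574 and Cyp51 3.76% with Akap9, all on the other strand. The strand setting of the counting is not given in the sources used here, so these values carry that uncertainty.

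**Figure D1:**
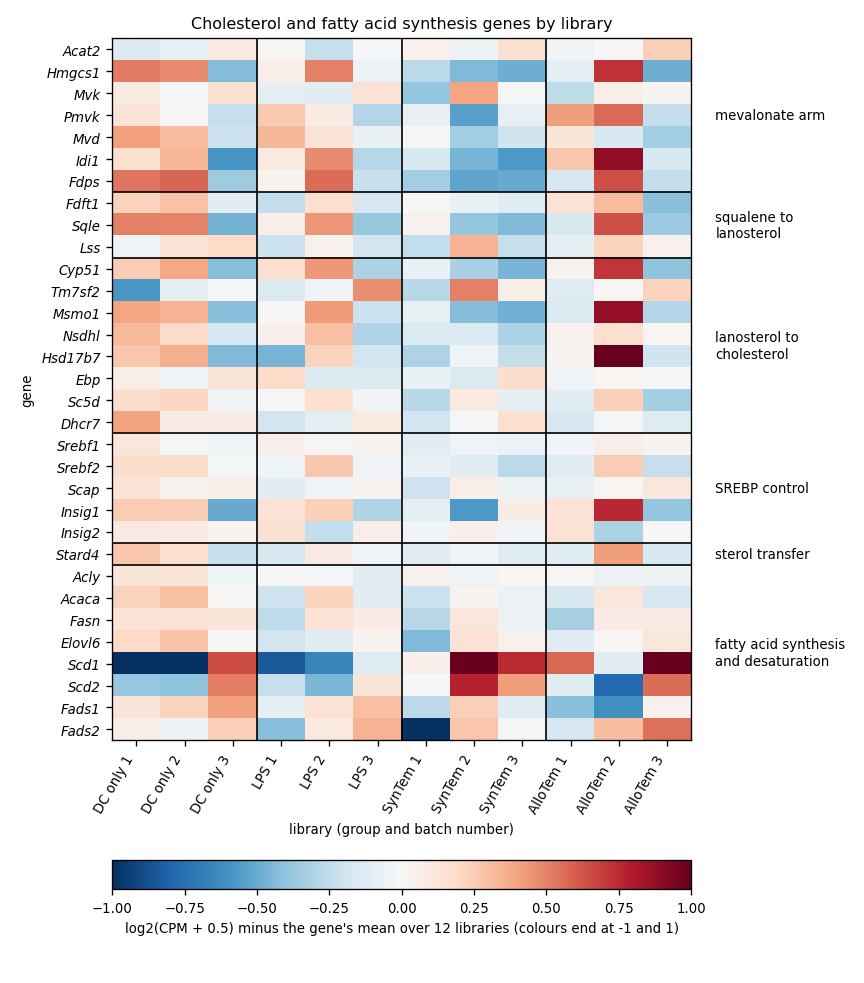
Level of each of the 32 genes (rows, ordered by role) in each of the 12 libraries (columns, ordered by group and replicate), as log2(CPM + 0.5) minus the gene's mean over the 12 libraries, with colours ending at -1 and 1. AlloTem 2 had the highest level for 10 of the 18 sterol enzymes (the share over all genes was not counted), and Scd1 and Scd2 ran high in libraries where many sterol enzymes ran low.

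None of the 32 genes passed the test between culture conditions. In AlloTem against SynTem, edgeR's quasi-likelihood test (Benjamini-Hochberg adjusted over all genes tested) called 0 of 32 where it called 0.167% of all genes, and in AlloTem against DC only 0 of 32 beside 1.76%. It called 0 of 32 in SynTem against DC only (0.0902% of all genes), in AlloTem against LPS (0.451%), and in LPS against DC only, where no gene at all was called (0%). An F-test over the 4 groups called 0 of 32 beside 1.26%. At an unadjusted p under 0.05 there were 2 of the 32 in AlloTem against SynTem (of 1381 genes in all), 1 each in AlloTem against DC only (1836), SynTem against DC only (1187) and AlloTem against LPS (937), none in LPS against DC only (531) and none over the 4 groups (1497). DESeq2 also called 0 of 32 in each of the 5 comparisons. The smallest adjusted p of a member with edgeR was 0.440, 0.203, 0.491, 0.720 and 0.999 in AlloTem against SynTem, AlloTem against DC only, SynTem against DC only, AlloTem against LPS and LPS against DC only. These comparisons share the AlloTem, SynTem or DC only libraries.

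As a description, the median log2 difference of the 32 was -0.21 in SynTem against DC only, with 4 above 0 and 28 below, beside 0.00 over all genes tested. It was 0.08 in AlloTem against SynTem (23 above 0, 9 below; all genes -0.01) and -0.06 in AlloTem against DC only (11 above, 21 below; all genes 0.00). In LPS against DC only it was -0.10 (6 above, 26 below; all genes 0.00), and in AlloTem against LPS 0.04 (19 above, 13 below; all genes 0.00). Within batches 1, 2 and 3 the SynTem against DC only median was -0.37, -0.16 and -0.03, that of AlloTem against SynTem 0.13, 0.11 and 0.07, that of AlloTem against DC only -0.23, 0.07 and 0.03, that of LPS against DC only -0.20, -0.06 and 0.02, and that of AlloTem against LPS 0.00, 0.13 and -0.01. The last 3 thus did not keep a direction over the batches. With single libraries left out the medians ran from -0.29 to -0.14 in SynTem against DC only, 0.04 to 0.15 in AlloTem against SynTem, -0.18 to -0.01 in AlloTem against DC only and -0.16 to -0.06 in LPS against DC only. With the Y-linked level as a covariate the SynTem against DC only median was -0.09, closer to 0 than with any library left out. In AlloTem against LPS the median was below 0 (-0.06) without AlloTem 2. By role, the AlloTem against SynTem median was 0.52 in the mevalonate arm (6 of 7 above 0), 0.12 from squalene to lanosterol (3 of 3), 0.16 from lanosterol to cholesterol (5 of 8), 0.08 in the regulators (4 of 5) and -0.01 in the fatty acid genes (4 of 8). The sterol roles were highest within batch 2, the pair of AlloTem 2 and SynTem 2: the median within batches 1, 2 and 3 was 0.17, 1.11 and 0.05 in the mevalonate arm, 0.15, 0.39 and 0.07 from squalene to lanosterol and 0.12, 0.23 and 0.05 from lanosterol to cholesterol. SynTem 2 carried the Y-linked transcripts and AlloTem 2 did not, so the 2 libraries of this pair were not alike in them.

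**Figure D2:**
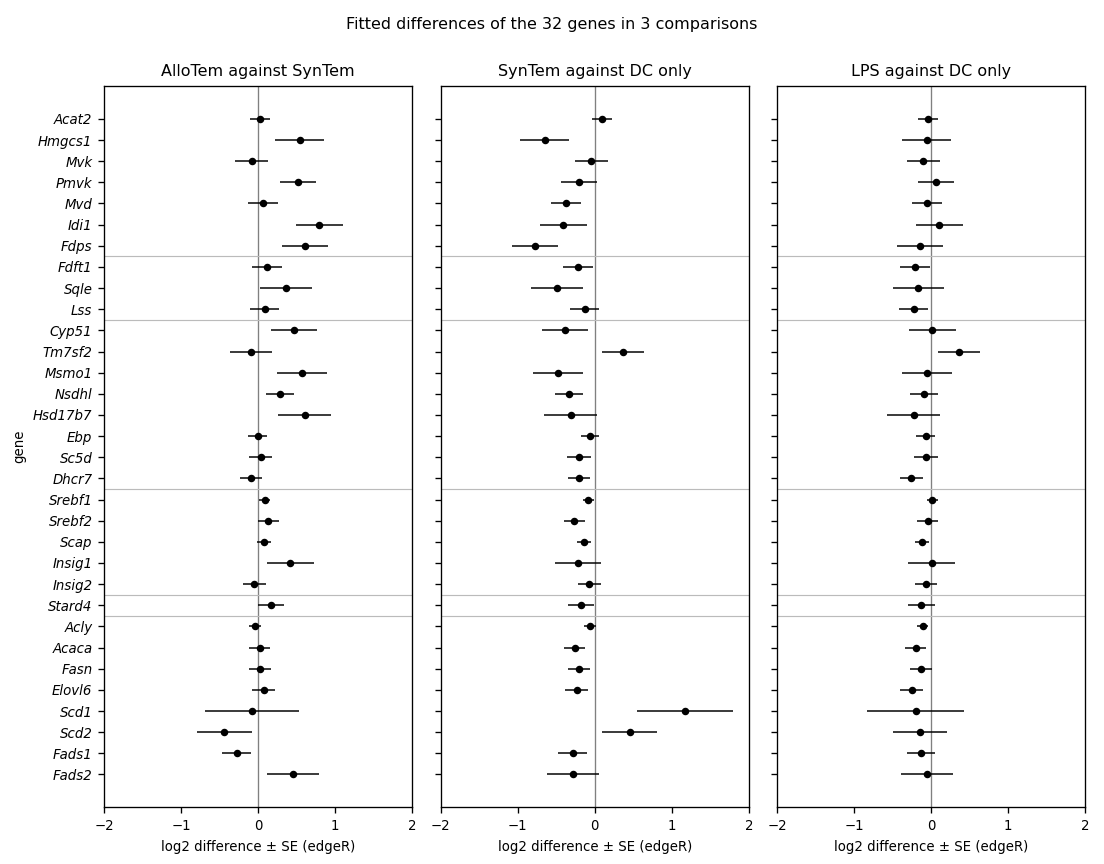
Fitted log2 differences with standard errors for the 32 genes, by role, in AlloTem against SynTem, SynTem against DC only and LPS against DC only (points, edgeR estimate; bars, ± SE; vertical line, no difference). In AlloTem against SynTem the largest positive value was that of Idi1 (0.79), and no gene passed the test in any panel.

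AlloTem 2 held the highest level of 10 of the 18 sterol enzymes: Hmgcs1, Pmvk, Idi1, Fdps, Fdft1, Sqle, Cyp51, Msmo1, Hsd17b7 and Sc5d. The share of all tested genes that were highest in AlloTem 2 was not counted, so this count is not shown to be particular to these enzymes. The mean log2 level of the 18 enzymes, each relative to its own mean, was 0.21, 0.22 and -0.18 in DC only libraries 1 to 3, -0.01, 0.19 and -0.12 in LPS, -0.16, -0.14 and -0.21 in SynTem and -0.02, 0.39 and -0.17 in AlloTem. SynTem was the lowest of the 4 conditions within each of the 3 batches, AlloTem 2 was the highest library of the 12, and the batch 3 library was below the batch 1 and batch 2 libraries in every group. In batch 3 SynTem lay close to DC only (-0.21 against -0.18). In batch 2 the libraries were not alike: Y-linked transcripts summed to 175 CPM in SynTem 2 and 0 CPM in DC only 2, LPS 2 and AlloTem 2. The order within batches therefore rests on a batch number that may not pair SynTem 2 with like libraries. The mean of the 8 fatty acid genes followed another order: -0.13, -0.11 and 0.25 in DC only, -0.29, -0.08 and 0.07 in LPS, -0.29, 0.35 and 0.14 in SynTem and -0.08, -0.13 and 0.31 in AlloTem. It was highest in SynTem 2, where the sterol enzymes were not high. Beside these orders, summed plasmacytoid DC markers were 817, 785 and 441 CPM in DC only, 457, 671 and 491 CPM in LPS, 392, 424 and 392 CPM in SynTem and 569, 714 and 508 CPM in AlloTem. All 7 markers of that list were detected in every library. Within AlloTem, library 2 was highest for Bst2, Tcf4, Spib and Cox6a2 and lowest for Siglech (40.9, 33.6 and 45.2 CPM in libraries 1 to 3) and Ccr9 (24.6, 13.6 and 25.4 CPM), and Ly6d lay between. The T cell marker sums given above were highest in SynTem. The part of these markers in the sterol enzyme levels was not tested.

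**Figure D3:**
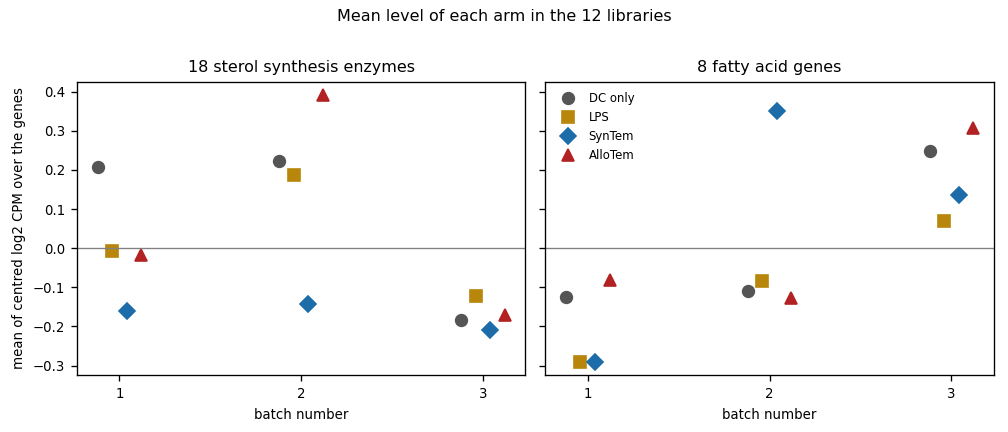
Mean of log2 CPM, centred per gene over the 12 libraries, of the 18 sterol enzymes and of the 8 fatty acid genes (vertical axis), by batch number (horizontal axis), with 1 symbol per library and a colour per group. SynTem is lowest of the 4 groups in each batch for the sterol enzymes, narrowly so in batch 3, and the fatty acid genes peak in SynTem 2 at 0.35. SynTem 2 differs from the other batch 2 libraries in its Y-linked transcripts.

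In the mevalonate arm, Idi1, which interconverts the isoprenoid building blocks, gave the largest fitted difference between AlloTem and SynTem. Idi1 stood at 80.2, 90.6 and 47.6 CPM in DC only libraries 1 to 3, 76.5, 99.8 and 58.8 CPM in LPS, 64.5, 51.9 and 47.9 CPM in SynTem and 86.5, 133 and 64.5 CPM in AlloTem. The AlloTem 2 library was the highest of the 12, AlloTem 3 lay just below SynTem 1, so the groups overlapped, and AlloTem was above SynTem within each batch. The means were 94.7 ± 35.1 CPM and 54.8 ± 8.68 CPM (SD, n = 3 each), a log2 difference of 0.79 ± 0.305 SE with an edgeR adjusted p of 0.440. Without AlloTem 2 the difference was 0.46, and with the Y-linked covariate 0.48. Idi1 is at chr13:8885501-8892451, plus strand (GRCm38), and its promoter is the middle sequence above.

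Fdps makes farnesyl diphosphate, the branch point to sterols and to protein prenylation. Fdps was measured at 109, 113 and 58.7 CPM in DC only libraries 1 to 3, 77.4, 111 and 64.5 CPM in LPS, 59.2, 52.1 and 52.9 CPM in SynTem and 67.4, 118 and 64.0 CPM in AlloTem. All 3 AlloTem libraries were above all 3 SynTem libraries, which were close to each other, while DC only 1 and 2 were nearly as high as AlloTem 2 and DC only 3 lay near SynTem. The AlloTem against SynTem log2 difference was 0.61 ± 0.302 SE (edgeR adjusted p = 0.559) and that of SynTem against DC only -0.78 ± 0.302 SE (adjusted p = 0.491). Without AlloTem 2 the former was 0.26. With the Y-linked covariate the differences were 0.32 and -0.37.

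Hmgcs1, the synthase that condenses acetyl-CoA with acetoacetyl-CoA to HMG-CoA, gave 145, 139.8 and 74.6 CPM in DC only libraries 1 to 3, 105, 143 and 96.8 CPM in LPS, 83.4, 74.0 and 71.9 CPM in SynTem and 94.2, 167 and 71.6 CPM in AlloTem. SynTem was narrow and low, AlloTem 2 was the highest library, and AlloTem 3 was just below the lowest SynTem library. The log2 difference was -0.65 ± 0.319 SE in SynTem against DC only (edgeR adjusted p = 0.637) and 0.54 ± 0.319 SE in AlloTem against SynTem (0.627). With the Y-linked covariate the former was -0.23. Within batches 1, 2 and 3 the AlloTem against SynTem difference was 0.17, 1.17 and -0.0048, largest in batch 2. Hmgcs1 is at chr13:119690379-119708260, plus strand (GRCm38).

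Pmvk, a kinase acting after mevalonate, had 18.9, 17.5 and 14.7 CPM in DC only libraries 1 to 3, 20.9, 18.2 and 14.003 CPM in LPS, 16.4, 11.7 and 16.3 CPM in SynTem and 23.2, 25.8 and 14.5 CPM in AlloTem. AlloTem 1 and 2 were the highest of the 12 and AlloTem 3 lay among SynTem (log2 difference 0.52 ± 0.233 SE, edgeR adjusted p = 0.517; 0.34 without AlloTem 2, 0.32 with the Y-linked covariate). Mvd, the decarboxylase that yields isopentenyl diphosphate, had 27.9, 25.9 and 17.9 CPM in DC only libraries 1 to 3, 26.3, 22.9 and 19.8 CPM in LPS, 20.8, 16.3 and 18.1 CPM in SynTem and 22.7, 18.7 and 16.3 CPM in AlloTem. DC only 1 and 2 and LPS 1 were its highest libraries, SynTem 2 and AlloTem 3 its lowest, and the groups overlapped (SynTem against DC only -0.38 ± 0.193 SE, adjusted p = 0.649; -0.17 with the covariate). Acat2, a thiolase that starts the route, was nearly level at 17.7, 18.4 and 20.9 CPM in DC only libraries 1 to 3, 19.6, 16.6 and 19.3 CPM in LPS, 20.1, 18.7 and 21.8 CPM in SynTem and 19.0, 19.5 and 23.1 CPM in AlloTem. Mvk, mevalonate kinase, ranged over 5.58 to 9.94 CPM and was highest in SynTem 2.

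**Figure D4:**
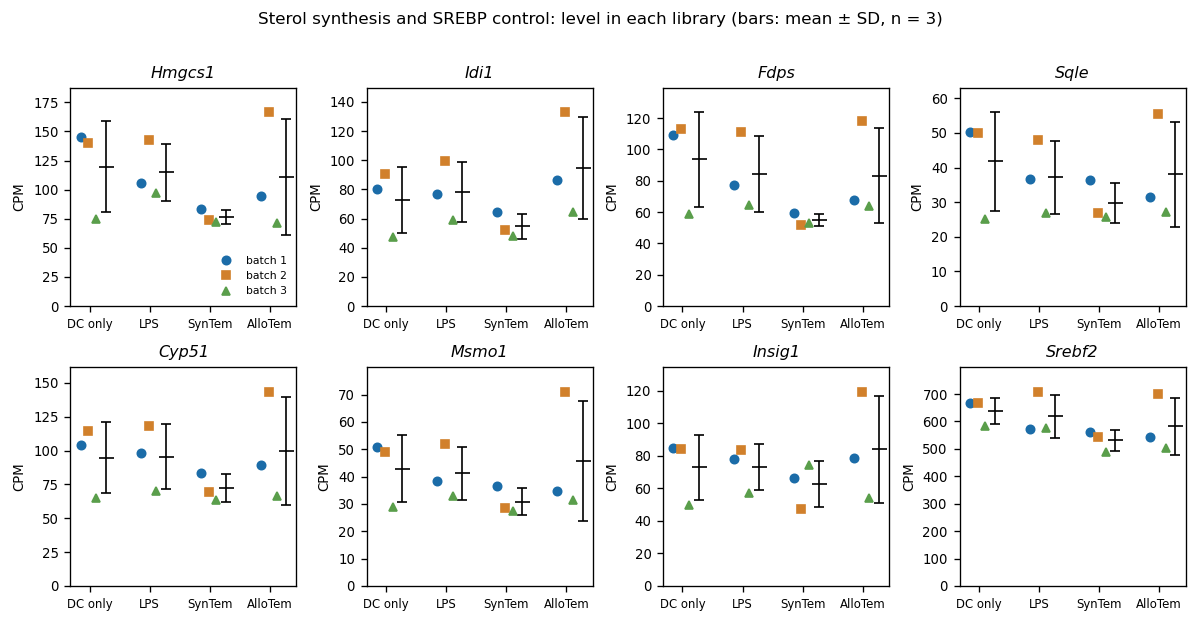
Levels in CPM (vertical axes, from 0) of 8 sterol synthesis and SREBP control genes in each library (symbols by batch) of the 4 groups (horizontal axes), with mean ± SD (n = 3). For Hmgcs1, Idi1, Fdps and Cyp51 the AlloTem 2 point lies above all others of its panel, and the SynTem means are the lowest.

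From squalene to lanosterol, Sqle, the epoxidase that oxidises squalene, stood at 50.1, 49.9 and 25.2 CPM in DC only libraries 1 to 3, 36.6, 48.0 and 26.9 CPM in LPS, 36.3, 26.9 and 25.9 CPM in SynTem and 31.6, 55.4 and 27.2 CPM in AlloTem. The batch 3 libraries were low in every group, and SynTem 2 was as low as they were. No comparison passed (AlloTem against SynTem 0.36 ± 0.335 SE, edgeR adjusted p = 0.778). Fdft1, squalene synthase, ranged over 18.1 to 30.5 CPM, highest in AlloTem 2 and lowest in AlloTem 3. Lss ranged over 8.92 to 13.7 CPM, highest in SynTem 2.

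Among the late enzymes, Cyp51, the lanosterol demethylase, gave 104, 115 and 65.1 CPM in DC only libraries 1 to 3, 98.1, 118 and 70.3 CPM in LPS, 83.7, 69.7 and 63.3 CPM in SynTem and 89.6, 144 and 66.1 CPM in AlloTem. AlloTem 2 was highest, and the 4 batch 3 libraries and SynTem 2 were the lowest 5. Its log2 difference was 0.47 ± 0.300 SE in AlloTem against SynTem (edgeR adjusted p = 0.661). Msmo1, the next oxidase, gave 50.9, 49.0 and 28.8 CPM in DC only libraries 1 to 3, 38.5, 51.9 and 33.0 CPM in LPS, 36.6, 28.4 and 27.5 CPM in SynTem and 34.8, 71.1 and 31.4 CPM in AlloTem. Its AlloTem 2 library stood apart, and the AlloTem against SynTem difference of 0.57 ± 0.326 SE (adjusted p = 0.616) was 0.10 without that library and 0.26 with the Y-linked covariate.

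Hsd17b7, a sterol ketoreductase, had 10.9, 11.6 and 6.47 CPM in DC only libraries 1 to 3, 6.35, 10.6 and 7.79 CPM in LPS, 7.14, 8.68 and 7.53 CPM in SynTem and 9.16, 18.7 and 7.74 CPM in AlloTem. The AlloTem 2 value was the highest, the groups overlapped, and the log2 difference of 0.61 ± 0.343 SE (edgeR adjusted p = 0.615) was 0.11 without it and 0.33 with the Y-linked covariate. Dhcr7, the reductase of the last step, had 20.8, 16.6 and 16.5 CPM in DC only libraries 1 to 3, 13.6, 14.5 and 16.7 CPM in LPS, 13.6, 15.5 and 17.5 CPM in SynTem and 13.9, 15.4 and 14.3 CPM in AlloTem. DC only 1 was its highest library, and all AlloTem libraries were below all DC only libraries (-0.30 ± 0.145 SE, adjusted p = 0.424; LPS against DC only -0.26 ± 0.145 SE, 0.999). Without DC only 1 these differences were -0.19 and -0.14. Nsdhl (9.78 to 15.5 CPM) was higher in every AlloTem library than in every SynTem library, with a log2 difference of 0.28 ± 0.184 SE (adjusted p = 0.667). Ebp (31.0 to 39.2 CPM) varied least of this group, Sc5d spanned 29.2 to 43.9 CPM and Tm7sf2 3.82 to 8.68 CPM.

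Among the regulators, Srebf2, the SREBP gene tied most closely to sterol synthesis, stood at 666, 668 and 584 CPM in DC only libraries 1 to 3, 573, 709 and 575 CPM in LPS, 561, 545 and 488 CPM in SynTem and 543, 701 and 503 CPM in AlloTem. All 3 SynTem libraries were below all 3 DC only libraries (-0.27 ± 0.137 SE, edgeR adjusted p = 0.649; -0.15 with the Y-linked covariate), and LPS 2 and AlloTem 2 were the highest of the 12. Srebf1, whose product acts mostly on fatty acid genes, was almost level: 115, 105 and 103 CPM in DC only libraries 1 to 3, 111, 108 and 109 CPM in LPS, 99.1, 104 and 102 CPM in SynTem and 104, 111 and 108 CPM in AlloTem. Its AlloTem libraries were all above its SynTem libraries, by a log2 difference of 0.08 ± 0.0699 SE (adjusted p = 0.748).

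Insig1, itself a target of SREBPs, varied more than Srebf1 and Srebf2: 84.6, 84.1 and 49.9 CPM in DC only libraries 1 to 3, 78.1, 83.7 and 57.3 CPM in LPS, 66.2, 47.3 and 74.6 CPM in SynTem and 78.4, 119 and 53.8 CPM in AlloTem. AlloTem 2 was again highest and the groups overlapped (0.42 ± 0.304 SE, edgeR adjusted p = 0.699). Its paralog Insig2 had 17.7, 17.6 and 16.9 CPM in DC only libraries 1 to 3, 18.5, 13.9 and 17.4 CPM in LPS, 16.3, 17.2 and 16.3 CPM in SynTem and 18.4, 13.2 and 16.6 CPM in AlloTem. AlloTem 2 was its lowest library. Scap had 105, 98.2 and 100.4 CPM in DC only libraries 1 to 3, 88.9, 93.2 and 97.4 CPM in LPS, 82.9, 100.2 and 92.4 CPM in SynTem and 90.6, 96.9 and 104 CPM in AlloTem, and all LPS libraries were below all DC only libraries (-0.12 ± 0.0885 SE, adjusted p = 0.999). Stard4, which moves cholesterol between membranes, had 48.6, 44.9 and 34.0 CPM in DC only libraries 1 to 3, 35.8, 42.3 and 38.7 CPM in LPS, 36.8, 39.1 and 36.7 CPM in SynTem and 36.6, 53.6 and 35.9 CPM in AlloTem. AlloTem 2 and DC only 1 were its highest libraries, and the log2 difference was 0.16 ± 0.170 SE in AlloTem against SynTem (adjusted p = 0.812).

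In fatty acid synthesis and desaturation, Fads1, a front-end desaturase that makes polyunsaturated fatty acids, had the smallest p of the 32 genes in AlloTem against DC only. Fads1 stood at 53.9, 58.0 and 66.1 CPM in DC only libraries 1 to 3, 46.5, 54.7 and 61.2 CPM in LPS, 41.3, 58.7 and 45.9 CPM in SynTem and 37.0, 32.3 and 51.0 CPM in AlloTem. The 3 AlloTem libraries were below the 3 DC only libraries, at 40.1 ± 9.76 CPM against 59.3 ± 6.20 CPM (SD, n = 3 each). The log2 difference was -0.56 ± 0.186 SE with an edgeR adjusted p of 0.203, and -0.64 with an adjusted p of 0.0184 where the Y-linked level was a covariate, so the call depends on that term. Against LPS the AlloTem difference was -0.43 ± 0.186 SE (adjusted p = 0.720). Fads1 is at chr19:10182888-10196877, plus strand (GRCm38). Fads2, the desaturase acting before it, had 43.4, 40.2 and 49.2 CPM in DC only libraries 1 to 3, 30.9, 44.4 and 52.9 CPM in LPS, 17.4, 50.4 and 41.3 CPM in SynTem and 36.9, 51.6 and 60.9 CPM in AlloTem. SynTem 1 was low and AlloTem 3 high, and no difference passed (AlloTem against DC only 0.17 ± 0.339 SE, adjusted p = 0.903).

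Scd1, a desaturase that makes monounsaturated fatty acids, had the largest fitted differences of the 32 in 3 of the 5 comparisons and the lowest mean CPM. Scd1 gave 1.38, 1.37 and 6.91 CPM in DC only libraries 1 to 3, 2.14, 2.49 and 3.81 CPM in LPS, 4.39, 10.1 and 7.41 CPM in SynTem and 6.51, 3.87 and 10.4 CPM in AlloTem. DC only 1 and 2 were lowest, DC only 3 was well above them, and AlloTem lay above LPS without overlap (1.30 ± 0.631 SE, edgeR adjusted p = 0.851). The difference from DC only was 1.10 ± 0.625 SE in AlloTem (adjusted p = 0.540) and 1.17 ± 0.628 SE in SynTem (0.665). The AlloTem value was 2.33 without DC only 3 and 0.68 without AlloTem 3. Scd2, its more abundant paralog, gave 117, 116 and 217 CPM in DC only libraries 1 to 3, 130.0, 111 and 166 CPM in LPS, 152, 261 and 204 CPM in SynTem and 141, 88.7 and 224 CPM in AlloTem. SynTem 2, AlloTem 3, DC only 3, SynTem 3 and LPS 3 were its highest libraries, which are the 5 with the Y-linked transcripts, and AlloTem 2 was its lowest. The part of the Y-linked level in this order was not tested.

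The enzymes of the trunk were steadier. Fasn, fatty acid synthase, had 328, 330.0 and 325 CPM in DC only libraries 1 to 3, 249.8, 330.2 and 315 CPM in LPS, 246, 322 and 288 CPM in SynTem and 237, 316 and 315 CPM in AlloTem. Library 1 was low in every group but DC only. Those libraries, LPS 1, SynTem 1 and AlloTem 1, also held the highest natural killer cell and macrophage marker sums of their groups: 581, 407 and 588 CPM over 6 natural killer cell markers (169 CPM in DC only 1, 8.38 to 169.5 CPM in the other libraries) and 76.8, 131 and 116 CPM over 7 macrophage markers (26.0 to 46.4 CPM elsewhere). Adgre1 alone gave 61.5, 117 and 100.2 CPM of these macrophage sums, and Spic was also highest in library 1 of these groups. Vcam1, Mertk, C1qa, C1qb and C1qc were instead higher in LPS 2 than in LPS 1 and in AlloTem 2 than in AlloTem 1. The part of these markers in the Fasn levels was not tested. Both AlloTem and SynTem lay below DC only without overlap (-0.18 ± 0.144 SE, edgeR adjusted p = 0.706, and -0.20 ± 0.144 SE, 0.780). Acaca, acetyl-CoA carboxylase, had 96.8, 101 and 83.0 CPM in DC only libraries 1 to 3, 71.1, 96.2 and 76.1 CPM in LPS, 71.0, 83.9 and 79.0 CPM in SynTem and 74.0, 89.2 and 73.8 CPM in AlloTem (AlloTem against DC only -0.24 ± 0.133 SE, adjusted p = 0.508). Its library 1 was low in LPS and SynTem, as for Fasn, and its groups overlapped. Acly, which supplies cytosolic acetyl-CoA to both pathways, had 272, 274 and 242 CPM in DC only libraries 1 to 3, 249, 246 and 233 CPM in LPS, 257, 243 and 254 CPM in SynTem and 252, 241 and 241 CPM in AlloTem. It kept within 233 to 274 CPM over the 12 libraries. Elovl6, the elongase, had 51.7, 54.9 and 44.9 CPM in DC only libraries 1 to 3, 39.4, 41.7 and 45.9 CPM in LPS, 33.0, 49.7 and 46.2 CPM in SynTem and 41.5, 45.3 and 48.7 CPM in AlloTem (LPS against DC only -0.25 ± 0.147 SE, adjusted p = 0.999), lowest in SynTem 1.

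**Figure D5:**
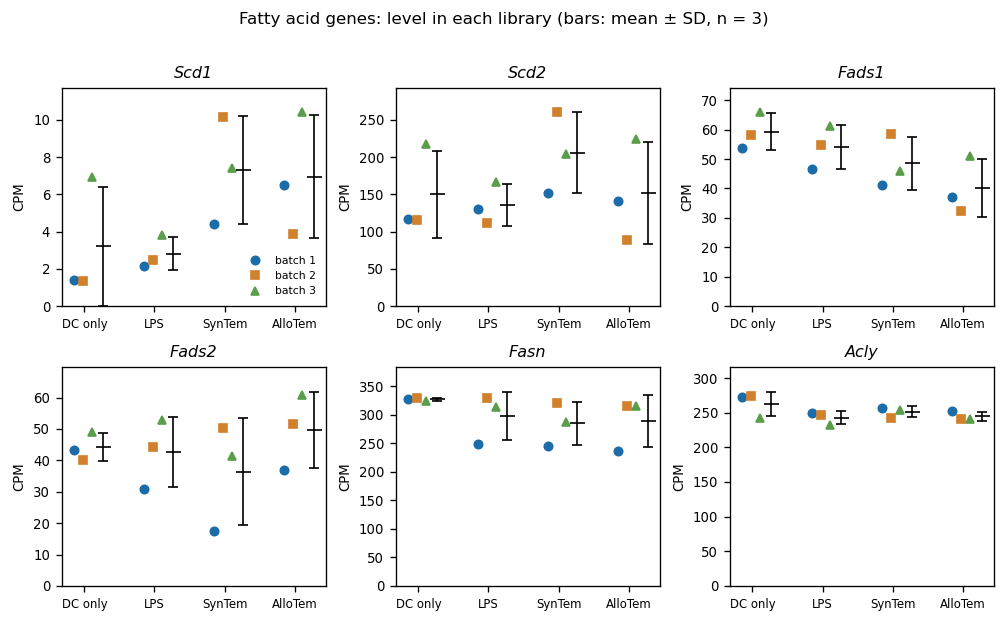
Levels in CPM (vertical axes, from 0) of 6 fatty acid synthesis and desaturation genes in each library (symbols by batch) of the 4 groups (horizontal axes), with mean ± SD (n = 3). The Fads1 points of AlloTem lie below those of DC only, and the Scd1 and Scd2 points of batch 3 lie above those of batches 1 and 2 in DC only, LPS and AlloTem.

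At most 3 of the 32 genes had libraries that did not overlap between groups in a given direction. In AlloTem against SynTem 3 of 32 were higher (Fdps, Nsdhl and Srebf1) and 0 lower, beside 7.09% and 5.94% of all genes. In AlloTem against DC only 0 were higher and 3 lower (Dhcr7, Fasn and Fads1), beside 9.35% and 7.82%. In SynTem against DC only 0 were higher and 2 lower (Srebf2 and Fasn), beside 7.42% and 6.83%. In LPS against DC only 0 were higher and 1 lower (Scap), beside 5.36% and 4.51%. In AlloTem against LPS 1 was higher (Scd1) and 0 lower, beside 5.52% and 4.54%.

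Levels of these genes were also compared between the deposited batch numbers. In a fit with group and batch, an F-test over the 3 batches called 0 of 32 members and no gene at all (0%; smallest adjusted p 0.0686, edgeR, reached by Idi1 and Cyp51). At an unadjusted p under 0.05 it had 16 of 32 members, beside 3949 genes in all (27.4%): 4 of 7 in the mevalonate arm, 2 of 3 from squalene to lanosterol, 5 of 8 late enzymes, 1 of 5 regulators and 4 of 8 fatty acid genes. Of the 18 sterol enzymes 13 had a lower fitted level in batch 3 than in batch 1, and 13 lower than in batch 2.

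The outcome of this test turned on single libraries. Without SynTem 2 it called 17.7% of all genes and 11 of the 32. Of these, 8 were lower in batch 3 than in batch 1: Idi1 by a log2 difference of -0.50 (edgeR adjusted p = 0.00167), Cyp51 -0.50 (0.00221), Sqle -0.54 (0.00645), Hmgcs1 -0.43 (0.0296), Msmo1 -0.41 (0.0222), Fdps -0.36 (0.0143), Mvd -0.43 (0.0388) and Srebf2 -0.12 (0.0416). The desaturase genes went the opposite way and were higher in batch 3 than in batch 1: Scd1 1.12 (0.0269), Scd2 0.59 (0.00631) and Fads2 0.71 (0.0300). Each adjusted p in these brackets is that of the F-test over the 3 batches, not of batch 3 against batch 1. For all of the 8 but Mvd, batch 3 lay further below batch 2 than below batch 1. Those differences from batch 2 were -0.86 for Hmgcs1, -0.83 for Fdps, -0.34 for Srebf2 and -0.275 for Mvd. Without DC only 1 it called 7.21% of all genes and 4 members (Cyp51, Acaca, Fasn and Fads2). Without DC only 2 it called 4.37% of all genes, without SynTem 3 0.128%, and 0 members in both cases. With any other library left out it called no gene. With both DC only 2 and SynTem 2 left out, a choice made after the data were seen, it called 20.9% of all genes and the same number of members, 11. Batch 3 of DC only, LPS and AlloTem also held the Y-linked transcripts and low Bst2 (82.2 to 86.2 CPM, against 156 to 303 CPM in their batches 1 and 2). Other plasmacytoid DC markers did not all fall with Bst2. The batch 3 library was highest in LPS for Siglech, Ccr9, Ly6d and Cox6a2, and in AlloTem for Siglech, Ccr9 and Ly6d. It was lowest in DC only for Siglech, Tcf4 and Spib, and in AlloTem for Spib. The part of the Y-linked transcripts and of these markers in the batch values was not tested.

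Around the pathway, the lists described were oxysterol and LXR genes, sterol esterification, uptake and storage, SREBP processing, other lipid synthesis and fatty acid oxidation. Gpr183, a receptor for a dihydroxylated oxysterol that guides DC positioning in the spleen, rose in AlloTem. Gpr183 stood at 44.4, 48.4 and 57.2 CPM in DC only libraries 1 to 3, 48.2, 59.9 and 42.8 CPM in LPS, 54.9, 49.1 and 38.2 CPM in SynTem and 129, 174 and 78.9 CPM in AlloTem. Every AlloTem library was above every other library. The part of T cells or other cells left among the sorted DCs in these Gpr183 levels was not tested. The means were 127 ± 47.4 CPM in AlloTem and 49.97 ± 6.54 CPM in DC only (SD, n = 3 each), a log2 difference of 1.35 ± 0.257 SE with an edgeR adjusted p of 0.0279. Against SynTem the difference was 1.42 ± 0.258 SE (adjusted p = 0.0694, and 0.0449 with the batch as a block) and against LPS 1.34 ± 0.257 SE (0.0549, and 0.0373 with the block). The call against DC only was lost without any 1 of DC only 1, 2 or 3 or AlloTem 1 or 2, with adjusted p 0.0609 to 0.146.

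Cyp27a1, a sterol hydroxylase that makes an oxysterol, gave -0.53 ± 0.125 SE in AlloTem against DC only (edgeR adjusted p = 0.0637, and 0.04998 with the block).

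Apart from Gpr183, no gene of these lists was called in any of the 5 comparisons without the block, where the shares of all genes were those given above. In AlloTem against DC only the counts were 1 higher and 0 lower of 10 tested oxysterol and LXR genes. None of 12 esterification, uptake and storage genes, 11 SREBP processing and turnover genes, 18 other lipid synthesis genes or 15 fatty acid oxidation genes was called. The smallest p in AlloTem against SynTem, list by list, belonged to Gpr183, to Lrp8, a lipoprotein receptor (1.30 ± 0.428 SE, edgeR adjusted p = 0.335), and to Erlin1, which binds SREBPs at the endoplasmic reticulum (-0.25 ± 0.113 SE, 0.520). For the other lists it was Slc25a1, the mitochondrial citrate carrier (0.44 ± 0.110 SE, 0.160), and Cpt2, of the carnitine shuttle (-0.24 ± 0.144 SE, 0.624). In LPS against DC only the corresponding values were -0.16 ± 0.124 SE for Cyp27a1, -0.49 ± 0.190 SE for the cholesteryl ester hydrolase gene Nceh1, -0.16 ± 0.0811 SE for Rnf145, 0.40 ± 0.226 SE for the triglyceride synthesis gene Dgat1 and -0.32 ± 0.144 SE for Cpt2, each with an edgeR adjusted p of 0.999.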

How the data were processed

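The authors deposited raw counts per Ensembl gene identifier for 12 RNA-seq libraries (TruSeq kit, single-end reads, per the labels' protocols), whole numbers without normalization, and a second table with a batch number per library. Per the submitters' processing notes, mm10 was the build. How reads were aligned and counted, with which annotation and strand setting, is not given in the sources used here. GENCODE M21 (GRCm38) gave symbols and positions and matched 52028 identifiers.

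From the counts, genes were kept with filterByExpr (minimum count 10, minimum total 15), scaled by TMM and fitted with edgeR 4.0.16 under R 4.3.3 (glmQLFit, robust), 1 mean per group over the 12 libraries, so that all groups share 1 estimate of spread. P-values were Benjamini-Hochberg adjusted over the 14413 genes tested, never over a list, and calls needed an adjusted p below 0.05. The SE is the log2 difference over the square root of F. The batch F-test used group and batch as additive terms, with 2 batch coefficients. Within-batch ratios were taken on log2(CPM + 0.5), and means over genes on log2 CPM with a prior count of 2.

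The members and gene lists were chosen with earlier results of these data known. Library values are given for the 5 members with the smallest p of each comparison, the most abundant member of each role and 4 paralog pairs. Of the related lists, called genes are given or, where none was called, the gene with the smallest p; Spring1 had no match. The list of other isoprenoid and late sterol genes is not reported here. Batch numbers were taken to pair libraries because a deposited table gives them; residuals of libraries sharing a number had a median correlation of 0.247 (18 pairs, -0.249 to 0.632, 12 above 0.1), and those of other pairs -0.201 (36 pairs). Alternatives were RLE scaling, no filter, DESeq2 1.42.0, batch as a block, the Y-linked level as a covariate, leaving out each library in turn and, added after the data were seen, leaving out both DC only 2 and SynTem 2.

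Scripts were tested on simulated counts with 200 changed genes: for AlloTem against SynTem (14094 genes) 42 of 100 at 2-fold and 73 of 100 at 4-fold were recovered, with 5 false calls in 120. For LPS against DC only (14080 genes) they were 45 and 71 of 100, with 4 false calls in 120.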

Additional observations from a re-analysis of the deposited data

How the results depend on the processing

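No member was called in the 5 comparisons or over the 4 groups under RLE scaling, no filter, DESeq2 (run for the 5 comparisons only), the batch as a block (the deposited batch numbers taken as pairing) or any library left out; with the Y-linked level as a covariate (also for the 5 comparisons only) 1 was called, Fads1 in AlloTem against DC only, and the cause was not tested. Over the 3 batches the members called ran from 0 to 11 with single libraries left out and were 11 with both DC only 2 and SynTem 2 left out. The median member log2 difference in AlloTem against SynTem ran from 0.0437 to 0.153 with a library left out and was 0.153 with both out; that in AlloTem against LPS ran from -0.0573 without AlloTem 2 to 0.0924 without AlloTem 1.

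Genes called in AlloTem against DC only, AlloTem against LPS, AlloTem against SynTem and SynTem against DC only were 420, 136, 78 and 21 with the replicate block, 598, 188, 39 and 46 with the Y-linked covariate, 676, 288, 318 and 254 with DESeq2, and 16, 25, 2 and 1 with both DC only 2 and SynTem 2 left out. LPS against DC only had 10 with DESeq2 and 1 with both left out. Without a filter AlloTem against SynTem had 41 and SynTem against DC only 33. With single libraries left out the counts ran from 42 to 323, 9 to 55, 3 to 47 and 0 to 56, in the same order, and from 0 to 1 in LPS against DC only. The causes were not tested. Of 348 repeated values of single genes, 20 lost or gained a call and 0 changed sign. Scd1, with as few as 22 counts, is the member that depth limits most.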
